A study of Mus musculus with 10 samples.

Results

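Serpin genes were described in pancreas tail pieces from mice that carried 0, 1 or 2 floxed copies of Insr, the gene of the insulin receptor. The members were all rows of the count table whose symbol is Serpin, a clade letter from a to i, a number and any further letters. This rule found 62 of the 24421 genes in the table, and 19 of them had enough counts to be tested, of 13688 genes tested in all. The other 43 are accounted for as untested, 18 of them with no count in any library. In the GENCODE M21 annotation (GRCm38), 23 members lie on chromosome 12, 15 on chromosome 13 and 14 on chromosome 1, where the Serpina and Serpinb genes stand in tandem clusters. Chromosomes 3 and 11 hold 2 members each, and the other members are spread over single chromosomes.

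Serpins share a fold with an exposed reactive centre loop. An inhibitory serpin offers this loop as bait, and the protease that cuts it is trapped in a covalent complex, so each molecule acts once. Secreted members restrain coagulation, fibrinolysis, complement and neutrophil proteases, the clade b members mostly stay inside cells, and some members, such as the collagen chaperone Serpinh1 and the hormone carrier Serpina7, inhibit no protease. In the pancreas, Serpini2 (pancpin) is a product of acinar cells, which make and store digestive proteases. The members were therefore ordered as the acinar member Serpini2, 5 members known from stroma and vessels (among them Serpine2, Serpinf1, Serping1 and Serpinh1), and the others by family and role.

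The samples were 10 libraries of messenger RNA, 1 per female mouse aged 12 weeks, each from a piece of the tail of the pancreas. Every mouse carried Ptf1aCreER, a tamoxifen-inducible Cre recombinase under control of Ptf1a, an acinar gene of the adult pancreas, and the nuclear reporter nTnG. The groups carried Insr as w/w in the 3 libraries labelled Insr WT, as w/f in the 3 labelled Insr Het and as f/f in the 4 labelled Insr KO, where f is the allele that Cre can remove. Cells outside the Ptf1a lineage keep the receptor in all 3 groups, and a whole piece of tissue mixes both kinds of cell. Libraries are named by label and mouse number, as in WT-2404. Insr itself had 253 to 1259 counts per library and stood at 29.8 ± 9.89 CPM in WT mice (SD, n = 3) and 31.5 ± 5.96 CPM in KO mice (SD, n = 4), where CPM is counts-per-million after scaling. Its log2 change from WT to KO was 0.09 (SE 0.26, edgeR adjusted p = 0.864), so gene counts of the whole piece did not check the labels.

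Gene counts per library ranged from 11718559 to 19024351. One library stood apart. Of the gene counts of WT-2404, 15.7% belonged to 30 digestive enzyme genes, against 58.3% for WT-1860, 71.4% for WT-2067, 71.2% to 76.1% for Het and 62.3% to 77.3% for KO libraries. The summed level of 15 fibroblast markers, all of them tested, was 1852 to 6499 CPM in WT, 768 to 1510 CPM in Het and 707 to 1674 CPM in KO libraries, with no marker at 0. The summed level of 10 macrophage markers was 472 to 1918 CPM in WT, 253 to 384 CPM in Het and 145 to 541 CPM in KO libraries. In such bulk samples fewer cells of a type and less RNA per cell cannot be told apart.

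Sequence upstream of 4 members is shown because the results turn on them: Serpini2 and its neighbour Serpini1, which moved with the digestive enzyme share, the collagen chaperone gene Serpinh1, and Serpina3n, the member with the lowest KO against WT value. The RefSeq promoter table (GRCm38.p6) held windows for 52 of the 62 members, 61 windows in all. Each sequence is the 250 bases before the transcription start, read 5′ to 3′ on the strand of the gene, and capitals mark every match to 7 motifs searched on both strands. They were the E-box CACCTG and the TC-box TTTCCCA, both bound by the acinar factor complex that contains Ptf1a, the heat shock motif GAANNTTC, the STAT motif TTCNNNGAA, the TATA box as TATAAA, the GC box as GGGCGG and the CCAAT box, none of which overlapped in these 4 windows.
Serpini2, chr3:75270079-75270328, minus strand: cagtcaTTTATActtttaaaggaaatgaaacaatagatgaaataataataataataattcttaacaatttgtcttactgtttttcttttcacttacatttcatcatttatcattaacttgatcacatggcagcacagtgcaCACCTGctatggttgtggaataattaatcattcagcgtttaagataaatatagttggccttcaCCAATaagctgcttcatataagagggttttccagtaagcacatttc
Serpini1, chr3:75557243-75557492, plus strand: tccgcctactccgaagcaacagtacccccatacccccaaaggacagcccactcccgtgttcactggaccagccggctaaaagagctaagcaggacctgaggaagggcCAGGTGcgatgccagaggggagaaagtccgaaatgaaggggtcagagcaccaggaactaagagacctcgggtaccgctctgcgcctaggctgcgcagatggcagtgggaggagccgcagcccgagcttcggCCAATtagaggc
Serpinh1, chr7:99353240-99353489, minus strand: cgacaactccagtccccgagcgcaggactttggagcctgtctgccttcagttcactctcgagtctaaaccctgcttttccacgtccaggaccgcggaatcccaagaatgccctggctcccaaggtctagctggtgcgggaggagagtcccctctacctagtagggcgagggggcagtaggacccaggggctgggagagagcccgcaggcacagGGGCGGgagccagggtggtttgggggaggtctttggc
Serpina3n, chr12:104406458-104406707, plus strand: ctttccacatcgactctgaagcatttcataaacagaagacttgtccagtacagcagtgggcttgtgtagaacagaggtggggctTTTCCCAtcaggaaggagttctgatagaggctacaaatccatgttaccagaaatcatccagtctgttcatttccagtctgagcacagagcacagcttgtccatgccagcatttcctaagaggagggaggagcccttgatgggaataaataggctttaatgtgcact

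CACCTG stood 109 to 104 bases before the start of Serpini2 and, on the other strand, 143 to 138 bases before that of Serpini1. Of 32851 windows of all genes, 17.2% held it, and 13 of the 61 member windows did. CCAAT lay 46 to 42 bases before the start in Serpini2 and 12 to 8 bases before it in Serpini1, and 33.8% of all windows and 19 member windows held it. The TATAAA match of Serpini2 lay 244 to 239 bases before the start, on the other strand, and that motif was in 12.4% of all windows and 17 of the members'. Serpinh1 held GGGCGG 37 to 32 bases before the start (32.7% of all windows, 7 member windows), and Serpina3n held TTTCCCA 166 to 160 bases before it (6.82% of all windows, 8 member windows). GAANNTTC was in 6.69% of all windows and in 3 member windows, and TTCNNNGAA in 7.02% and 10. A match is a string of letters in a window, not a measured binding site.

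The members' summed level did not separate the groups, but its makeup differed between libraries. All 62 members together stood at 886 ± 208 CPM in WT (SD, n = 3), 1143 ± 200 CPM in Het (SD, n = 3) and 1039 ± 264 CPM in KO mice (SD, n = 4). Before scaling, their share of all gene counts was 0.280% for WT-2404 and 0.0697% to 0.116% for the other 9 libraries. Serpini2 made up 3.62% of the serpin counts of WT-2404, 32.3% of those of WT-1860 and 60.5% of those of WT-2067, against 60.0% to 70.6% for Het and 54.4% to 73.8% for KO libraries. The 5 stromal members ran the other way, with 60.1%, 38.6% and 17.1% in the same WT libraries, 7.99% to 17.6% in Het and 7.999% to 20.6% in KO libraries. WT-2067 thus lay inside the range of the floxed groups on both shares, and the other WT libraries lay outside it.

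**Figure D1:**
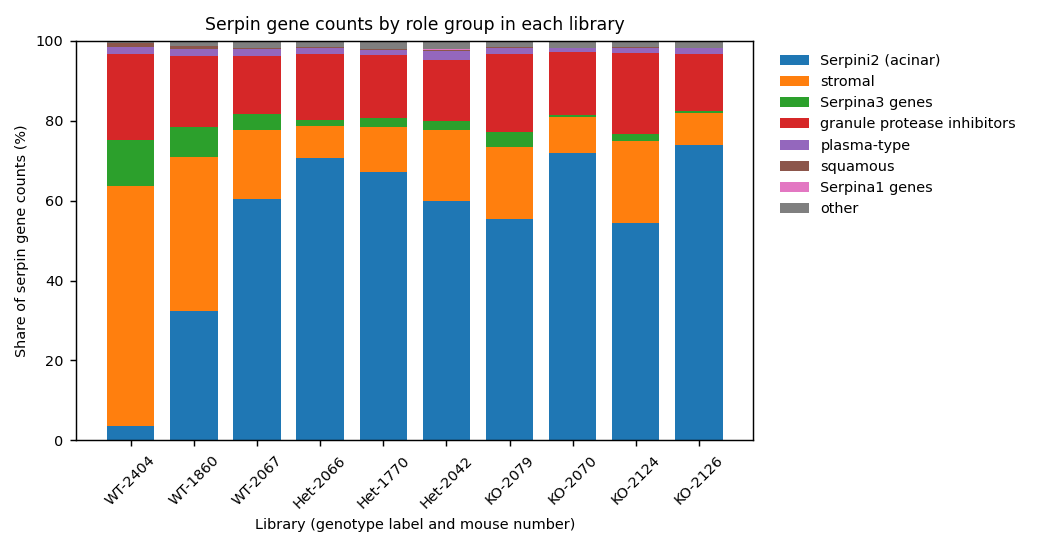
Share of all serpin gene counts (y axis, percent) taken by each role group, stacked in 1 bar for each of the 10 libraries (x axis). Serpini2 fills 3.62% of the bar of WT-2404 and 60.5% of that of WT-2067, and the stromal members 60.1% and 17.1%.

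Per length, Serpini2 ranked first of the tested members in 9 of the 10 libraries and the fifth in WT-2404. There it stood at 20.3 CPM per kb of exon, below Serping1 at 84.0, Serpinh1 at 71.8, Serpina3n at 41.1 and Serpinf1 at 22.8 CPM per kb. In the mean of the 10 libraries it stood at 422 CPM per kb of exon, followed by Serpinb1a at 43.5, Serping1 at 36.1, Serpinh1 at 26.4, Serpina3n at 14.3, Serpinb6a at 9.28 and Serpinf1 at 8.28 on this scale. In the mean of the WT group the order below Serpini2 was different, with Serping1 at 56.6 and Serpinh1 at 47.3 above Serpinb1a at 29.8 CPM per kb. In the KO group Serpinb1a, at 49.4, stood above Serping1 at 26.6 and Serpinh1 at 18.1 CPM per kb. Serping1 and Serpinh1 are neighbours in both orders, and their ranges of CPM per kb overlapped among the WT and among the KO libraries.

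KO against WT asks what goes with 2 floxed Insr alleles. The fitted change was below 0 for 14 of the 19 tested members, as for 48.1% of all genes, with low values in Serpina3n, Serpinb5, Serpine2 and Serpinh1, while Serpina3c, Serpind1, Serpini2, Serpinb1a and Serpini1 were above 0. None passed the threshold of 0.05 on edgeR's adjusted p (0 members, lowest adjusted p = 0.116), and no gene of the whole table did (0% called). At an unadjusted p under 0.05 in edgeR there were 11 members on the lower side, where 13.9% of all genes fall there, and 3 on the higher side (9.61% of all genes). The ranges of the libraries did not overlap in 6 members, all lower in KO (among them Serpine2, Serpinb5, Serpina3g, Serpina3n and Serping1), against 9.15% of all genes on that side and 6.74% on the other. The median log2 fold change of the tested members was -1.08, beside 0.03 for all genes tested. DESeq2 called 6 members, all lower in KO (among them Serpine2, Serpinb5, Serpina3n, Serping1 and Serpinh1), where it called 5.27% of all genes on that side.

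These differences leaned on which WT libraries entered. Without WT-2404 the median of the members was -0.43, and 7 members were at an unadjusted p under 0.05 (9.42% of all genes). Without WT-2067, the WT library most like the floxed groups, 7 members passed edgeR's adjusted threshold, with 13.6% of all genes. Among them were Serpine2, Serpinb9, Serping1 and Serpinh1 on the lower and Serpinb1a and Serpini1 on the higher side. WT-2404 was the highest of the 10 libraries for 11 of the 19 members (25.9% of all genes) and the lowest for 4 (24.5%). With the enzyme share as a covariate the median of the members was -0.36, and with the mean log2 CPM of the fibroblast markers as one it was -0.16.

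Het against WT, the comparison for 1 floxed allele, used the same WT libraries. Serpina3g, Serpinh1, Serpina3n and Serpine2 had low values, and 0 of 19 members passed edgeR's adjusted threshold (lowest adjusted p = 0.184; 0% of all genes). At an unadjusted p under 0.05 in edgeR, 9 members were lower (11.6% of all genes) and 1, Serpind1, higher (8.26%). Ranges did not overlap in 11 members lower in Het (13.5% of all genes) and in 1 member higher, Serpind1 (11.3%). The median of the members was -0.92, with 12 of 19 below 0, beside 0.00 for all genes with 49.7% below 0, and it was -0.34 without WT-2404. DESeq2 called Serpine2, Serpina3g and Serpinh1, all lower, where it called 1.93% of all genes on that side, and gave no adjusted p for 3 members. Without WT-2067, 6 members passed in edgeR, with 8.19% of all genes.

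KO against Het asks whether the further floxed allele goes with a further difference. No member passed the adjusted threshold in edgeR (0 of 19, lowest adjusted p = 1.0) or in DESeq2 (0 members), and 0 were at an unadjusted p under 0.05 in edgeR, where 0.752% of all genes were. Ranges overlapped in all 19 members (1.16% of all genes were lower and 1.3% higher without overlap). The median of the members was -0.16, with 13 of 19 below 0, beside 0.01 for all genes with 48.5% below 0.

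**Figure D2:**
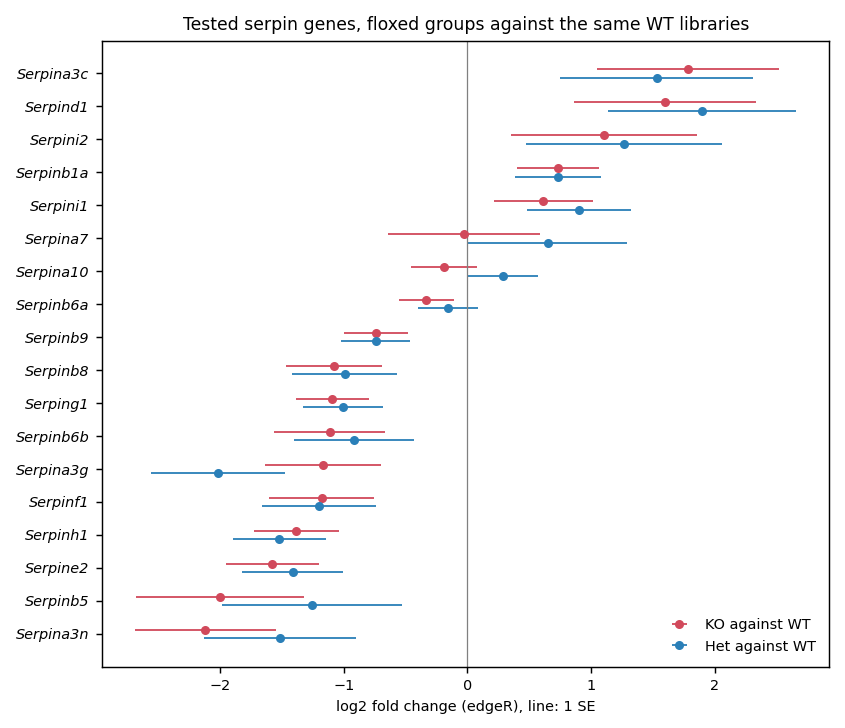
Log2 fold change of 18 tested serpin genes (x axis) in KO (red) and Het libraries (blue) against the same WT libraries; each line is 1 SE from edgeR. In KO against WT, 13 genes lie below 0 and 5 above it, and with library size alone, without scaling factors, Serpinb1a and Serpini1 fall below 0 (-0.31 and -0.29), where the median of all genes is -1.17.

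Serpini2, the acinar member (chr3:75242370-75270078, minus strand), was higher in all other libraries than in WT-2404, the library with the smallest enzyme share. WT-2404 was at 28.7, WT-1860 at 240 and WT-2067 at 680 CPM. The Het libraries were at 892 (Het-2066), 841 (Het-1770) and 547 CPM (Het-2042), and the KO libraries at 526 (KO-2079), 794 (KO-2070), 400 (KO-2124) and 1006 CPM (KO-2126). WT-2404 and WT-1860 lay below all floxed libraries and WT-2067 lay among them, so the groups overlapped. The log2 change from WT to KO was 1.11 (SE 0.75, edgeR adjusted p = 0.382), from 0.54 without WT-2404 to 2.35 without WT-2067. The exact permutation p was 0.114 (two-sided).

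Within genotypes, Serpini2 rose with the share of counts taken by the digestive enzyme genes, a list that holds no serpin. Its level changed by 0.79 on the log2 scale for each 10 percentage points of that share (SE 0.08, edgeR adjusted p = 3.3e-05). In this fit 6.93% of all genes and 5 of the 19 tested members passed. The slope of Serpini2 lay between 0.73 and 0.87 when each library was left out in turn and passed each time. With library size alone it was 0.41 (adjusted p = 0.00122 in edgeR), where the median of all genes moved to -0.38. Set against the enzyme genes themselves, Serpini2 in WT-2404 lay within the range of the other libraries. It had 0.645, 0.642 and 0.836 counts per 1000 enzyme counts in WT-2404, WT-1860 and WT-2067. The other libraries had 0.648 to 1.04. The mean of this ratio was 0.739 ± 0.106 in KO (SD, n = 4) and 0.708 ± 0.111 in WT mice (SD, n = 3), a difference within the spread of the mice (exact permutation test, two-sided, p = 0.686).

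**Figure D3:**
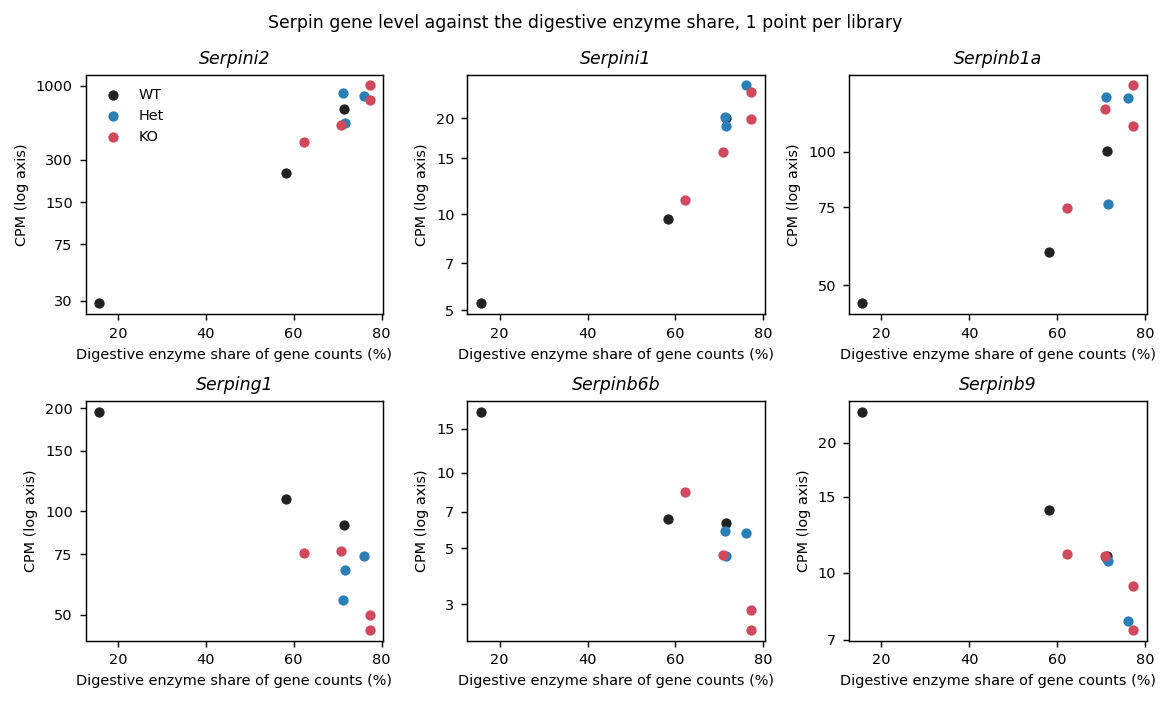
Level of 6 serpin genes (y axis, CPM, log axis) against the digestive enzyme share of the gene counts (x axis, percent), with 1 point per library coloured by label. Serpini2 runs from 28.7 CPM at 15.7% to 1006 CPM at 77.3%, while Serping1, Serpinb6b and Serpinb9 are highest in WT-2404, the library at 15.7%.

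Serpini1 (neuroserpin, an inhibitor of tissue plasminogen activator known from neurons and endocrine cells) followed the enzyme share too. Its levels in WT-2404, WT-1860 and WT-2067 were 5.25, 9.63 and 19.98 CPM, those in the Het libraries 19.0 to 25.4 CPM and those in the KO libraries 11.1 to 24.3 CPM. The WT range reached into both floxed groups from below. The slope was 0.35 per 10 points (SE 0.06, edgeR adjusted p = 0.00339), but it did not pass without WT-2067 (0.28, adjusted p = 0.148) and was -0.03 with library size alone. Without WT-2404 it was 0.71, beside 0.87 for Serpini2. The summed level of 8 islet markers was 480 to 5678 CPM in WT and 3579 to 8457 CPM in KO libraries. On the enzyme share the islet markers had a median slope of 0.53 with 8 of 8 above 0, beside -0.001 for all genes. Of these markers 0 passed edgeR's adjusted threshold (6.93% of all genes), and their part in the result was not tested. Serpini1 (chr3:75557547-75643495, plus strand) and Serpini2 start 287 kb apart, with 2 protein-coding genes, Wdr49 and Pdcd10, between them. Pdcd10, tested in the same fit, had a slope of -0.09 (edgeR adjusted p = 0.494).

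The 5 stromal members were lower in the floxed groups than in WT, each with the highest library in WT, but none passed edgeR's adjusted threshold. The median of their log2 changes was -1.38 for KO against WT, with 5 of 5 at an unadjusted p under 0.05, and -1.28 for Het against WT, with 5 of 5 again (the shares of all genes are 13.9% and 11.6%). The fibroblast markers had a median of -1.58 for KO against WT, with 14 of 15 below 0 (48.1% of all genes). The macrophage markers had -1.70, with 10 of 10 below 0, and 10 ductal markers -0.97, with 8 of 10. The 8 endothelial markers went the other way, at 0.24 with 1 of 8 below 0. The part of these lists in the result was not tested.

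Serpinh1 (Hsp47, the chaperone of procollagen in the endoplasmic reticulum) stood at 175, 114 and 57.4 CPM in WT-2404, WT-1860 and WT-2067. The Het libraries were at 29.7, 37.7 and 53.3 CPM and the KO libraries at 58.8, 33.99, 43.6 and 40.7 CPM. All Het libraries lay below all WT libraries, and KO-2079 overlapped WT-2067. The log2 change from WT to KO was -1.38 (SE 0.34, edgeR adjusted p = 0.116), and -0.94 without WT-2404. Per 1000 counts of the fibroblast markers, Serpinh1 had 43.7 ± 9.94 counts in KO (SD, n = 4) and 32.4 ± 6.25 in WT libraries (SD, n = 3), a difference in which the mice overlapped (exact permutation test, two-sided, p = 0.171).

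Serping1 (C1 inhibitor, which restrains complement C1 and plasma kallikrein) stood at 195, 109 and 91.2 CPM in WT-2404, WT-1860 and WT-2067. The Het libraries were at 55.3, 73.9 and 67.4 CPM and the KO libraries at 76.6, 45.2, 75.4 and 49.7 CPM. Both floxed groups lay wholly below WT. The log2 change from WT to KO was -1.09 (SE 0.30, edgeR adjusted p = 0.116), and -0.69 without WT-2404, and the exact permutation test gave p = 0.0286 (two-sided), the smallest that 3 against 4 mice allow.

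Serpine2 (protease nexin-1, an inhibitor of thrombin and urokinase on cell surfaces) stood at 44.5, 27.0 and 19.6 CPM in the WT libraries, at 5.88 to 17.3 CPM in Het and at 6.59 to 13.1 CPM in KO libraries. Both floxed groups lay wholly below WT. The log2 change of Serpine2 from WT was -1.58 for KO (SE 0.37, edgeR adjusted p = 0.116) and -1.41 for Het (SE 0.41, adjusted p = 0.184).

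Serpinf1 (PEDF, a secreted inhibitor of vessel growth that inhibits no protease) stood at 53.8, 24.6 and 18.1 CPM in the WT, 7.63 to 17.4 CPM in the Het and 7.18 to 19.2 CPM in the KO libraries. KO-2079 overlapped WT-2067. Its log2 change from WT to KO was -1.18 (SE 0.42, edgeR adjusted p = 0.144), and -0.57 without WT-2404.

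Within genotypes, 4 of the 5 stromal members rose with the fibroblast score, the mean log2 CPM of the fibroblast markers, which include no serpin. In this fit 11.6% of all genes passed, 7.3% with a higher and 4.27% with a lower level, and 7 of the 19 members did. A rise was not particular to the stromal members, as 13 of the 19 slopes were above 0 and 6 below. Serpinb5 had a slope of 1.43 that did not pass (2.11 without WT-2404, edgeR adjusted p = 0.0446). On the higher side 10 of 10 macrophage, 5 of 10 ductal and 0 of 8 endothelial markers passed, and their part in the result was not tested. Per unit of the score, log2 slopes were 1.17 for Serpinf1 (SE 0.18, edgeR adjusted p = 0.00108), 0.98 for Serpine2 (SE 0.18, adjusted p = 0.00349), 0.84 for Serpinh1 (adjusted p = 0.0126) and 0.73 for Serping1 (adjusted p = 0.00993). Serpine2 and Serpinf1 passed with each library left out in turn. Serpinh1 and Serping1 did not pass without WT-2404 (adjusted p = 0.0624 and 0.0596) or without WT-2067 (0.143 and 0.0748 in edgeR). Serpini1 fell by 0.93 on the log2 scale per unit of the score (edgeR adjusted p = 0.0156) and Serpini2 by 1.82 (adjusted p = 0.0398). Without WT-2404 these values were -0.60 and -0.99. The call of Serpini1 was lost in 4 of the 10 fits that left out a library (WT-2404, WT-2067, KO-2124 or KO-2126, edgeR adjusted p = 0.0550 to 0.169). That of Serpini2 was lost in these 4 and without WT-1860 or Het-2042 (6 of 10, edgeR adjusted p = 0.0508 to 0.172), with TMM factors computed without enzyme genes (0.0608) and with the filter of 1 count (0.0587).

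**Figure D4:**
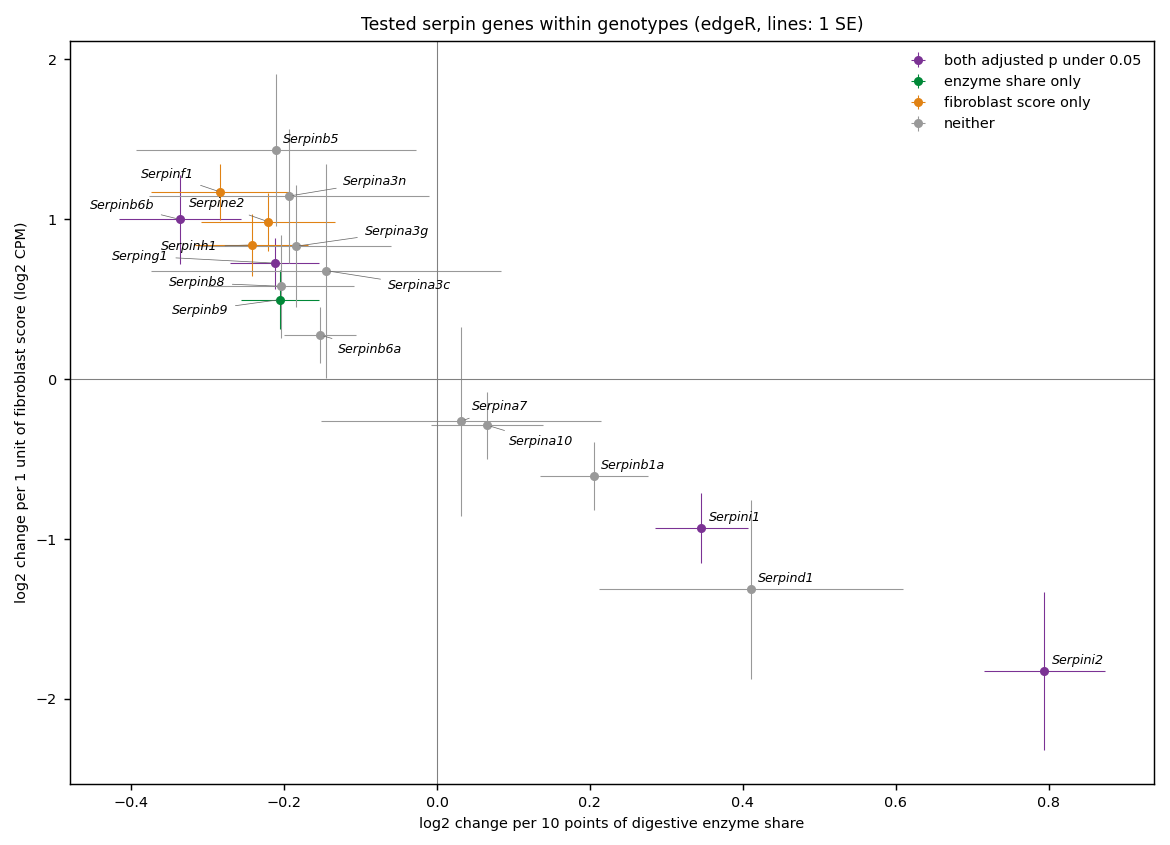
Slope of 18 tested serpin genes on the digestive enzyme share (x axis, log2 change per 10 percentage points) and on the fibroblast score (y axis, log2 change per unit), both within genotypes over the same 10 libraries; lines are 1 SE and colours mark which adjusted p passed. Serpini2 lies at 0.79 and -1.82 and Serpinf1 at -0.28 and 1.17; with library size alone the signs of Serpinb1a, Serpini1 and Serpina10 are the opposite on both axes.

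Of the 11 Serpina3 genes, a mouse cluster that stands for the single human antichymotrypsin gene, 3 were tested. Serpina3n, an acute-phase inhibitor of cathepsin G-like proteases and granzyme B, had 84.8, 52.2 and 41.4 CPM in WT-2404, WT-1860 and WT-2067. It had 18.6, 25.0 and 18.8 CPM in the Het libraries and 32.8, 3.69, 9.41 and 8.09 CPM in the KO libraries. All floxed libraries lay below all WT libraries, and KO-2079 was the highest of them. The log2 change from WT to KO was -2.12 (SE 0.57, edgeR adjusted p = 0.116), from -1.74 without WT-2404 to -3.05 without KO-2079, and Het against WT was -1.52 (SE 0.61, adjusted p = 0.218). The exact permutation test of KO against WT gave p = 0.0571 (two-sided). Levels of 7 hepatocyte markers summed to 15.3 to 49.7 CPM in WT and 4.65 to 15.2 CPM in KO libraries, and those of 7 neutrophil markers to 10.7 to 151 and 1.05 to 14.9 CPM, and their part in the result was not tested.

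Serpina3g, a member expressed in activated leukocytes, was low throughout. It stood at 4.28, 2.57 and 2.39 CPM in WT, 0.430 to 1.12 CPM in Het and 0.505 to 1.98 CPM in KO libraries, without overlap with WT in either group. Of its 50-base stretches, 15.5% also occur in other genes, most often Serpina3f, Serpina3h and Serpina3i, so its counts are uncertain to that extent. For Serpina3n this share was 6.9%. Serpina3c ran the other way, with 0.109 to 0.251 CPM in WT, 0.186 to 0.860 CPM in Het and 0.202 to 1.24 CPM in KO libraries. These ranges overlapped, and 3 counts correspond to 0.0501 to 0.395 CPM, so this member stood near the limit of detection.

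Among the 18 members of the Serpinb1, b2, b6, b8, b9 and b10 kinds, which act inside leukocytes and epithelial cells against proteases of granules and lysosomes, 5 were tested and they did not run together. Serpinb1a (an inhibitor of neutrophil elastase and chymotrypsin-like proteases) was lowest in WT-2404, as Serpini2 was. It stood at 45.5, 59.5 and 101 CPM in WT-2404, WT-1860 and WT-2067, at 133, 132 and 76.1 CPM in the Het and at 125, 114, 74.8 and 141 CPM in the KO libraries. Both floxed groups overlapped WT-2067. Its log2 change from WT to KO of 0.73 (SE 0.33) did not pass in edgeR (adjusted p = 0.205) and was -0.31 with library size alone, and its slope on the enzyme share was 0.21 (SE 0.07, edgeR adjusted p = 0.0959). That slope was 0.51 without WT-2404 (edgeR adjusted p = 0.0549), and the change from WT to KO was 1.12 without WT-2067 (adjusted p = 0.0420).

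Serpinb6b and Serpinb9 (an inhibitor of granzyme B that protects cells carrying it) fell with the enzyme share. Serpinb6b stood at 17.5, 6.56 and 6.31 CPM in WT, 4.67 to 5.88 CPM in Het and 2.37 to 8.39 CPM in KO libraries, and Serpinb9 at 23.6, 14.0 and 10.9 CPM, 7.74 to 10.8 CPM and 7.38 to 11.1 CPM. In both genes WT-2404 was the highest library and KO overlapped WT. The slopes per 10 points were -0.34 for Serpinb6b (edgeR adjusted p = 0.0213) and -0.21 for Serpinb9 (adjusted p = 0.0269), and -0.21 for Serping1 (adjusted p = 0.0412), where 2.1% of all genes fell and 4.83% rose. None of these held without WT-2404 (edgeR adjusted p of 0.0789, 0.161 and 0.172) or without WT-2067 (0.0943, 0.29 and 0.301). That of Serping1 was lost in 7 of the 10 fits, also without WT-1860, Het-1770, Het-2042, KO-2070 or KO-2126 (edgeR adjusted p from 0.0512). Without WT-2404 the slopes were -0.66, -0.33 and -0.32. Serpinb6b also rose with the fibroblast score (0.999 per unit, edgeR adjusted p = 0.0334), but the call was lost in 5 of the 10 fits that left out a library (WT-2404, WT-2067, KO-2070, KO-2124 or KO-2126, edgeR adjusted p = 0.0504 to 0.243). The 10 macrophage markers had a median slope of -0.41 in the same fit, with 8 of 10 past the threshold on the lower side, and their part in the result was not tested.

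Serpinb6a (an inhibitor of trypsin-like and granule proteases in many cell types) did not separate the groups, with 43.3 to 77.4 CPM in WT, 45.6 to 56.9 CPM in Het and 39.1 to 51.9 CPM in KO libraries. Its exons overlap Nqo2, Ripk1 and 1110046J04Rik on the other strand, so reads of these genes may have been counted for it. Serpinb8 stood at 1.80 to 4.76 CPM in WT, 1.49 to 1.66 CPM in Het and 1.011 to 2.07 CPM in KO libraries, with a log2 change from WT to KO of -1.08 (SE 0.39, edgeR adjusted p = 0.14), and -0.61 without WT-2404.

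**Figure D5:**
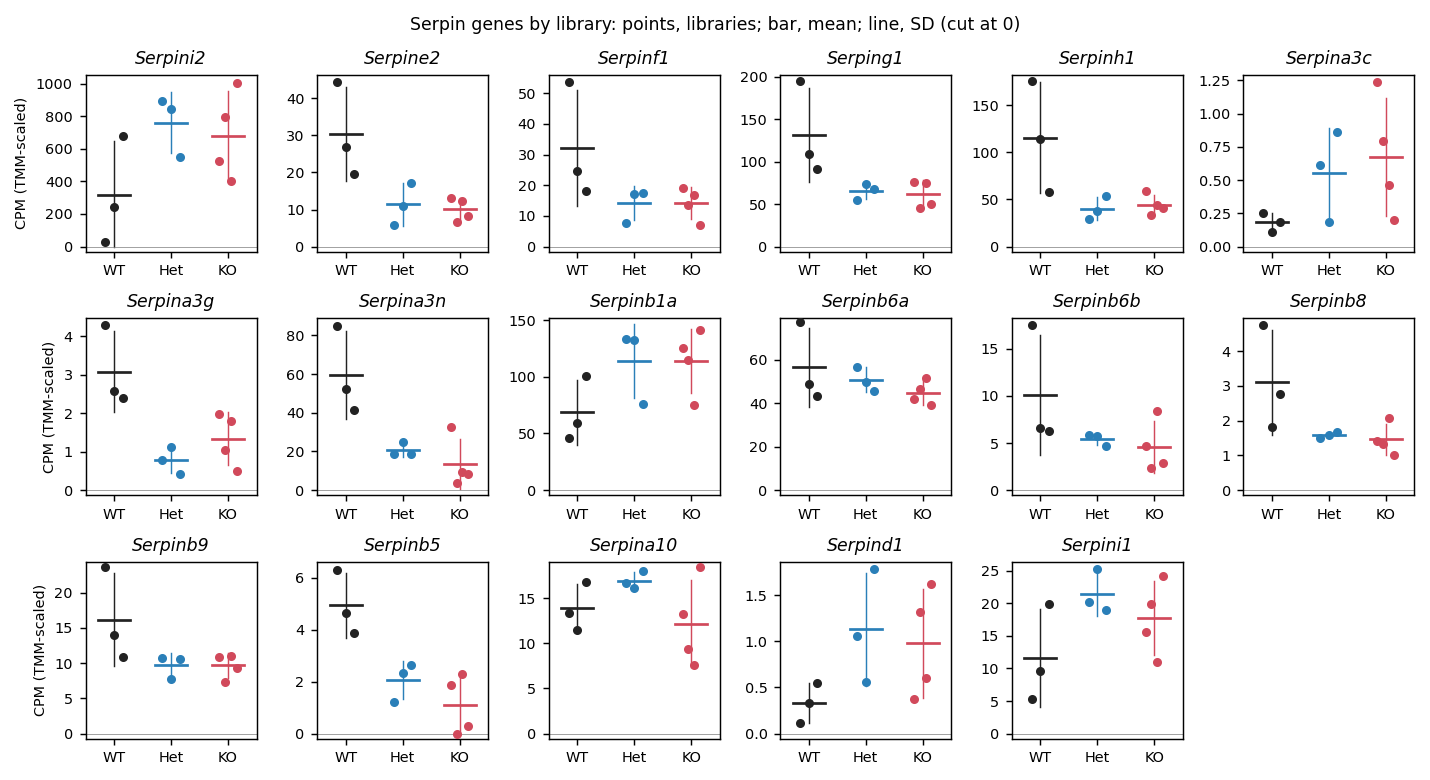
CPM (y axis, each from 0) of 17 serpin genes in the WT, Het and KO libraries (x axis), with 1 point per library, the mean as a bar and the SD as a line that stops at 0. Serpina3n spans 41.4 to 84.8 CPM in WT and 3.69 to 32.8 CPM in KO, and Serpini2 28.7 to 680 CPM in WT and 400 to 1006 CPM in KO.

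Of the 9 members known from squamous epithelium, only Serpinb5 (maspin, an epithelial serpin without protease inhibition) was tested. It stood at 6.32, 4.65 and 3.86 CPM in the WT libraries, at 1.23 to 2.64 CPM in the Het and at 1.86, 0, 2.31 and 0.303 CPM in the KO libraries. Both floxed groups lay below WT. The log2 change from WT to KO was -1.999 (SE 0.68, edgeR adjusted p = 0.132). A count of 0 in KO-2070 allows up to 3 counts, and the 0.303 CPM of KO-2126 is the level of 3 counts there, so depth limits this change. Of 5 squamous markers, Krt5 and Krt6a had no count in any library and 1 was tested, with log2 changes from WT of -1.89 in KO and -1.85 in Het that did not pass. The markers summed to 1.16 to 4.54 CPM in WT, 0.0614 to 1.40 CPM in Het and 0.132 to 1.92 CPM in KO libraries. The summed level of 10 ductal markers was 1089 to 1641 CPM in WT, 565 to 943 CPM in Het and 570 to 937 CPM in KO libraries, and the part of either list in the result was not tested.

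Most of the 7 members of the plasma type are made mainly by liver, and 3 of the 7 were tested. Serpina10 (the protein Z-dependent inhibitor of factor X) did not separate the groups, with 11.4 to 16.8 CPM in WT, 16.1 to 18.1 CPM in Het and 7.65 to 18.5 CPM in KO libraries, and its log2 change from WT to KO was -0.19 (SE 0.27, edgeR adjusted p = 0.687), from -0.46 without KO-2126 to -0.03 without WT-2067 or KO-2124. Serpind1 (heparin cofactor II, a thrombin inhibitor) stood at 0.117 to 0.552 CPM in WT, 0.559 to 1.78 CPM in Het and 0.371 to 1.62 CPM in KO libraries. The Het libraries lay above WT, if narrowly, and the KO libraries overlapped it. Against WT the log2 change was 1.90 for Het (SE 0.76, edgeR adjusted p = 0.21) and 1.60 for KO (SE 0.74, adjusted p = 0.212), the latter 1.06 without WT-2404. Serpina7 (thyroxine-binding globulin) stood at 0.303 to 1.23 CPM over all libraries.

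The 43 untested members had at most 60 counts in any library. No Serpina1 gene was tested, and these genes, which encode the plasma inhibitor of neutrophil elastase, summed to at most 0.982 CPM in any library. Among the members with no count were all 4 Serpinb3 genes, Serpinb11, Serpinb13, Serpina12 and Serpine3. The untested member with the most counts was Serpinb9b, with 96 over the 10 libraries and 60 in 1 of them, followed by Serpina3i with 69 counts, 50 of them in 1 library. Serpinc1 (antithrombin) had 18 counts and Serpinf2 (the plasmin inhibitor) 21 over the 10 libraries.

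Targets, receptors and partners of serpins were read from the same fits. Of 40 such genes in the table, 29 were tested, 20 of them below 0 in KO against WT (48.1% of all genes) with a median of -0.47. At an unadjusted p under 0.05 there were 11 lower (13.9% of all genes) and 1 higher (9.61%). The 4 with the smallest unadjusted p were all lower and none passed edgeR's adjusted threshold. F2rl1 (the protease-activated receptor that trypsin cleaves) was at 8.97 ± 2.94 CPM in WT mice (SD, n = 3) and 3.98 ± 0.908 CPM in KO mice (SD, n = 4), a log2 change of -1.16 (SE 0.28, edgeR adjusted p = 0.116). F3 (tissue factor) had -1.36 (SE 0.36), F2r (the thrombin receptor) -1.52 (SE 0.41) and F7 (coagulation factor VII, with a lowest count of 0) -2.84 (SE 0.85). All 4 had ranges without overlap, which their choice by p in the same comparison made likely. Of the 29 tested genes, 7 were lower in KO without overlap (9.15% of all genes) and 1 was higher (6.74%). These genes did not run as 1 set, as 9 were above 0 in KO against WT. On the enzyme share 7 rose and 1 fell past edgeR's adjusted threshold (4.83% and 2.1% of all genes). The list summed to 21291 to 264212 CPM in WT and 132652 to 377101 CPM in KO libraries.

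Protease inhibitor genes outside the serpin family, with chains of inhibitor complexes included, were split in direction. Of 36 such genes, 27 were tested, 15 of them below 0 in KO against WT (48.1% of all genes), with 6 lower (13.9% of all genes) and 3 higher (9.61%) at an unadjusted p under 0.05, a median of -0.16 and none past edgeR's adjusted threshold (0 genes). Timp1 (an inhibitor of matrix metalloproteases) had the smallest p, with 30.6 ± 22.2 CPM in WT mice (SD, n = 3), 3.34 ± 3.10 CPM in KO mice (SD, n = 4) and a log2 change of -3.11 (SE 0.67, edgeR adjusted p = 0.116). A2m (alpha-2-macroglobulin) had -2.77 (SE 0.87). Itih3 (a heavy chain of inter-alpha-trypsin inhibitor, not its inhibiting chain) had -2.70 (SE 0.85), with a lowest count of 0. Cst6 (a cystatin) was higher, at 1.92 (SE 0.50), with 0.584 ± 0.355 CPM in WT mice (SD, n = 3) and 2.07 ± 0.333 CPM in KO mice (SD, n = 4).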

How the data were processed

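Gene expression was measured by RNA sequencing in 10 libraries, 1 per mouse, grouped by the genotype label as Insr WT (3), Insr Het (3) and Insr KO (4). The labels mention 1 more WT mouse, not analysed here. A genotype element shared by all groups and the values of 1 member, which stays in the counts and medians, are not reported here. Members and gene lists were chosen with earlier results of these data known. Per the labels' protocols, RNA came from pulverised frozen tissue with an RNeasy kit, and libraries were made with the NEBNext Ultra II stranded mRNA kit. The text for WT-2404 gives the RNA extraction but no library kit. The submitters' processing notes name DRAGEN, STAR, Cufflinks and mm10. The counting tool, the annotation and the use of strand are not given in the sources used here, so genes that overlap on either strand, or share sequence with near-identical copies, are uncertain.

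The table deposited by the authors holds raw counts per gene symbol. Its 2 rows without a gene (reads outside genes, 2.59% to 8.71% of counts, and ambiguous reads, 0.101% to 0.584%) stayed out of library sizes and tests. All 10 columns matched a sample by name. Libraries of the same group differed by more than sampling noise (chi-square per degree of freedom 26.5 to 988). The mice are separate animals with 1 piece of tissue each, so p-values of the genotype comparisons measure the spread between mice and between pieces together. Those of the slopes measure the scatter of the libraries about the fitted slope. A count of 0 allows up to 3 counts, or 0.0501 to 0.395 CPM, which covers counting error only.

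Genes passing filterByExpr (minimum count 10) were tested in 1 fit over all libraries with edgeR 4.0.16 (TMM factors, glmQLFit robust, glmQLFTest, two-sided) in R 4.3.3, with Benjamini-Hochberg adjustment over 13688 genes and a threshold of 0.05. The labels give no batch, so the fit had no covariates. CPM are counts-per-million of library sizes multiplied by TMM factors. These factors ran from 0.596 in KO-2126 to 3.54 in WT-2404, so CPM compared between libraries depend on them. On this scale the digestive enzyme genes summed to 1297310 CPM in KO-2126. The log2 values of CPM had a prior count of 2 added. Slopes on the enzyme share and the fibroblast score had genotype in the fit. KO against WT and Het against WT share the WT libraries, so they are not independent. Permutation tests were exact, with a smallest p of 0.0286 for 3 against 4 and 0.1 for 3 against 3 mice. The fit was tested on simulated counts, with set changes added to the same mean level of each gene in all libraries. These counts held no shift in makeup like that of WT-2404, so the check does not cover it. Values per library were given for tested members with a mean of at least 10 CPM or an unadjusted p under 0.05 in any genotype comparison (18 of 19), and for up to 4 genes of each of the lists of targets and of other inhibitors with the smallest unadjusted p in KO against WT. Untested members, and Serpina7, were singled out after their values were seen. Gene positions, exon lengths and stretches of 50 bases shared between genes came from GENCODE M21 (GRCm38), the build family of mm10. Alternatives were DESeq2 1.42.0, other scalings, a filter of 1 count, only the groups compared, the enzyme share as covariate and leaving out each library. The fibroblast score as covariate was added after seeing the data.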

Additional observations from a re-analysis of the deposited data

Results flagged for a closer look

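Serpina7 was set apart in 1 KO library. KO-2070 had 1.05 CPM, while the other 3 KO libraries had 0.303 to 0.415 CPM, so the gap to the nearest was 0.851 of the range of the group. As 3 counts correspond to 0.395 CPM in KO-2070 and to 0.303 CPM in KO-2126, these values rest on few counts. Of 21 measures examined in this way in the KO libraries, about 1.05 would be marked by chance. Groups of 3 libraries were not examined.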

How the results depend on the processing

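Members past the adjusted threshold in KO against WT (0 in edgeR) numbered 6 with DESeq2 (all lower, beside 5.27% of all genes), 13 with library size alone (20.8% of all genes) and 0 to 7 with a library left out (7 without WT-2067, 13.6%). In Het against WT (0) they numbered 3 (all lower, 1.93%), 11 (22.9%) and 0 to 6 (6 without WT-2067, 8.19%). On the enzyme share (5) they numbered 14 of 19 with library size alone (79.6% of all genes), 13 with no genotype term (31.6%) and 1 to 8 with a library left out (2 without WT-2404, 8.96%; 1 without WT-2067, 1.28%; 8 without Het-2066, 6.49%). On the fibroblast score (7) they numbered 16 of 19 (85.4%), 15 (38.2%) and 2 to 8 (3 without WT-2404, 4.98%; 2 without WT-2067, 2.72%; 4 without KO-2124, 8.44%, or KO-2126, 5.96%). The median log2 fold change of the members in KO against WT (-1.08) was -2.41 with library size alone, -0.36 with the enzyme share and -0.16 with the fibroblast score as covariate, and -1.21 to -0.43 with a library left out. In Het against WT (-0.92) it was -2.58, -0.16, -0.032 and -1.07 to -0.34, and -0.99 with only the groups compared (17 members tested). In KO against Het (-0.16) it was 0.079 with library size alone and -0.21 to -0.02 with a library left out. Library size alone moved the median of all genes by -1.19, -1.36 and 0.16 in these comparisons. TMM factors without enzyme genes and the filter of 1 count kept the 4 counts above within 1.5 times and the 3 medians within 0.1, and so did RLE factors in the genotype comparisons, where alone they were run. Single genes changed sign as follows, and the cause was not tested. With library size alone, KO against WT was -0.31 for Serpinb1a and -0.29 for Serpini1, Het against WT -1.01 for Serpina10, -0.40 for Serpinb1a and -0.058 for Serpini1, the enzyme slope -0.31, -0.17 and -0.034 and the fibroblast slope 0.39, 0.21 and 0.036 for Serpina10, Serpinb1a and Serpini1. With the enzyme share as covariate, KO against WT was 0.070 for Serpinb6a and -0.065 for Serpini1, and Het against WT 0.10 for Serpinb6b and 0.26 for Serpinb6a. With the fibroblast score as covariate, KO against WT was 0.43 for Serpinf1, -0.0033 for Serpinb1a, 0.23 for Serpinb6b, 0.060 for Serpinb6a, -0.15 for Serpind1, -0.67 for Serpini2 and -0.48 for Serpini1. Het against WT was then 0.30 for Serpinb5, 0.22 for Serpinf1, -0.032 for Serpina10, 0.41 for Serpinb6b, 0.20 for Serpinb6a and -0.15 for Serpini2. With no genotype term, Serpina3c had an enzyme slope of 0.21 and a fibroblast slope of -0.54. Het against WT of Serpinb6a was 0.15 without WT-2404. Depth limits Serpina3c, Serpind1 and Serpina7, whose levels are near those of 3 counts. It also limits Serpinb5, with 0 CPM in KO-2070 and 0.303 CPM, the level of 3 counts, in KO-2126. The lowest levels of Serpina3g, in Het-2042 and KO-2126, are not far above that limit. No paired analysis was possible because the groups share no mouse number.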
